A study of Solanum lycopersicum x Solanum pennellii and Solanum lycopersicum and Solanum pennellii with 31 samples.

Results

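The small RNA (sRNA) loci described here lie in the middle part of tomato chromosomes 3 to 12, a stretch that is poor in genes on the tomato map and is usually classed as heterochromatin. A locus was taken when it was at least 41 bp long and shorter than 1 kb, and its midpoint lay between 33.3% and 66.7% of the chromosome's length, the length being the largest end of any locus listed on that chromosome of the Heinz genome SL2.50. Position and length chose the loci, and no count entered the choice directly, but the bounds of a locus, and so its length, were set by clustering reads of the same libraries. This gave 18489 middle loci of 219578 in the table, or 12.3% of the 149746 loci of the same length range on those chromosomes. The other 131257 loci of that range, on both flanks, are called outer loci below. A further 4337 loci in the middles fell outside the length range, 4313 of them shorter than 41 bp and 24 longer, and were not taken.

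In plants, RNA polymerase IV and an RNA-dependent RNA polymerase make precursors that Dicer-like enzymes cut into short interfering RNAs. These guide DNA methylation to matching sequence, a process called RNA-directed DNA methylation, and most of their sources are transposons and other repeats. In large plant genomes the pathway is best known at short transposons close to genes, whereas the repeat-rich middles of chromosomes hold their methylation mainly through other enzymes. Neither repeats nor chromatin marks were measured in these libraries, and gene and repeat annotation was not used here, so the heterochromatic label rests on position alone.

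The study set introgression lines against M82, a cultivar of Solanum lycopersicum. Each of the 3 lines carries, in an M82 background, a homozygous segment of the wild relative S. pennellii LA0716, on chromosome 1 in IL1-1, on chromosome 2 in IL2-5 and on chromosome 8 in IL8-3. Each line is represented by 1 library, with no replicate, and M82 by 2 (replicates 1 and 2), all from the whole aerial part of seedlings of 2 weeks. The libraries came from earlier work of the same laboratory, and the line names are those that the authors assigned after finding a labelling error. No middle locus lies in an introgressed segment. The 3 lines were compared with M82 as a group, so that their spread is one between genotypes and a p-value measures the spread between these samples only. Where 3 values are given for the lines they stand in the order IL1-1, IL2-5, IL8-3, and the 2 values of M82 in the order replicate 1, replicate 2.

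The libraries held 4680913 counts in IL1-1, 5303281 in IL2-5 and 5688499 in IL8-3, against 4860695 in M82 replicate 1 and 2843012 in M82 replicate 2, the shallowest. The middle loci took 210584 to 491307 of these counts per library, and the median middle locus had 2 or 3 counts per library. Most single loci are therefore near the limit of what these libraries can measure. The counts cover every read length. The table does not record how reads that match several places were shared out, so a count may include reads made at a near-identical copy elsewhere.

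sRNA loci were sparse in the chromosome middles. There were 85.6 middle loci per Mb, against 303.7 outer loci per Mb, a ratio of 0.282 (95% exact interval 0.277 to 0.286, counting error only), and the middle was the sparser part on 10 of 10 chromosomes. These are densities of listed loci. How far unassembled sequence, or sequence without unique matches, lowers them was not tested. Together the middle loci covered far less of the sequence, between 0.679% of the middle on chromosome 9 and 2.64% on chromosome 6, against 4.39% (chromosome 12) to 6.99% (chromosome 6) of the outer parts.

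The chromosomes differed more in their middles than in their flanks. Chromosome 6 had the densest middle with 158.4 loci per Mb, followed by chromosome 12 with 142.6, chromosome 11 with 99 and chromosome 10 with 88.5. Chromosomes 8, 4, 5 and 3 lay close together at 75.2, 75.2, 74.2 and 70.6 loci per Mb. Chromosomes 7 and 9 had the sparsest middles, with 51.4 and 45.6 loci per Mb. The range over chromosomes was 3.47-fold in the middles and 1.54-fold in the outer parts, where chromosome 6 was again the highest (376.7 per Mb) and chromosome 12 the lowest (245.2 per Mb).

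The ratio of middle to outer density was 0.582 on chromosome 12 (95% exact interval 0.559 to 0.605) and 0.156 on chromosome 9 (0.146 to 0.166). Chromosome 6 had the next highest ratio, 0.420 (0.403 to 0.439), and chromosome 7 the next lowest, 0.165 (0.155 to 0.175). These intervals hold counting error only and treat each locus as independent. Loci were gathered in places, so the intervals are too narrow to tell which chromosomes differ. Across the 10 chromosomes the density of the middle ran against the length of the chromosome (Spearman's rho of -0.79 over 10 chromosomes, given as a description). It showed almost no relation in order to the density of the outer parts (rho of 0.01 over the same chromosomes).

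**Figure D1:**
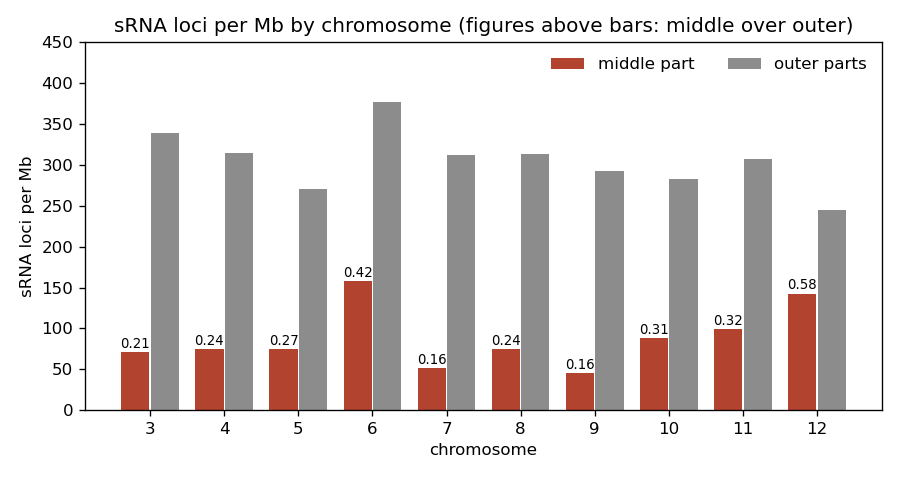
Bars give the number of sRNA loci (41 bp to under 1 kb) per Mb in the middle part (red) and the outer parts (grey) of each chromosome, and the number above each red bar is the ratio of middle to outer density. Every red bar is the lower of its pair, with ratios from 0.156 on chromosome 9 to 0.582 on chromosome 12.

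The middles were not uniform inside. In steps of 5% of chromosome length, the mean density over 10 chromosomes was 640.3 ± 40.3 loci per Mb (SD) in the first step and 573.4 ± 47.1 in the last. The lowest mean, 57.4 ± 17.8, stood at 25% to 30% of the length, which is just outside the middle part as defined, and the mean inside it ran up to 112.1 ± 124.6 at 55% to 60%. The sparsest step was inside the middle on chromosomes 3, 4, 5, 7, 9, 10 and 11, and left of it on chromosomes 6, 8 and 12.

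The rise toward the right flank was carried by a few chromosomes. On chromosome 12 the right side of the middle held 225.5 loci per Mb and the left side 59.8, a ratio of 3.77. Chromosome 11 had a ratio of right to left of 2.03, chromosome 6 one of 1.65, chromosome 10 one of 1.51 and chromosome 4 one of 1.49. On the other 5 chromosomes the left side was the denser one, most of all on chromosome 3, with a ratio of 0.408.

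The borders of the middle part do not mark a step in the data. In the bands of 1 Mb at the lower border there were 83.0 loci per Mb just inside and 72.2 just outside, and at the upper border 120.4 just inside and 142.4 just outside. The band outside was the denser one on 4 chromosomes at the lower border and on 6 at the upper border. Median length was 129.5 and 130 bp just inside the lower and upper borders, against 131.5 and 134 bp just outside.

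**Figure D2:**
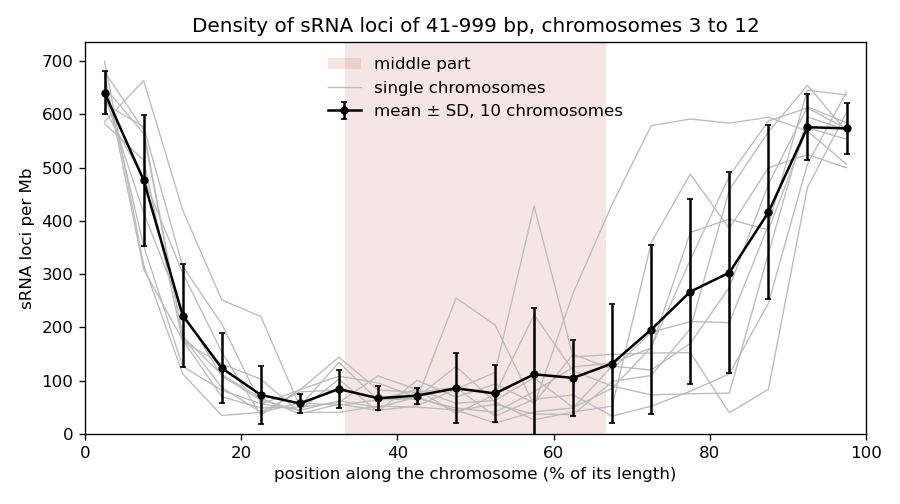
Density of sRNA loci of 41 bp to under 1 kb (per Mb) against position along the chromosome (% of its length), in 20 steps. Black points and bars are the mean and SD over 10 chromosomes, grey lines are single chromosomes and the shaded band is the middle part. The mean was 640.3 loci per Mb in the first step and stayed at or below 132.4 from 15% to 70% of the length.

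Within the middles the loci were gathered in a few places. Of 207 windows of 1 Mb lying wholly in a middle, the median held 63 loci, the lower quartile 41 and the upper quartile 105. The highest window held 487 loci, at 37 to 38 Mb of chromosome 12, followed by 466 loci at 31 to 32 Mb of chromosome 6, 420 loci at 38 to 39 Mb of chromosome 12 and 396 loci at 24 to 25 Mb of chromosome 6. The 10 densest windows were 4.83% of the windows and held 3648 loci, 19.7% of all middle loci. Of these 10 windows 5 lay on chromosome 12, 4 on chromosome 6 and 1 on chromosome 11. In 7 windows, all on chromosomes 6 and 12, the count reached the mean density of the outer parts.

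Loci of the 10 densest windows were also longer and more abundant. Their median length was 143 bp and their median summed count 17, against 120 bp and 11 in the 4184 loci of the 104 sparser windows (those at or below the median). The same order held between chromosomes, where the density of the middle went with the median length of its loci (rho of 0.85 over 10 chromosomes) and with their median summed count (rho of 0.88), values that share the depth of the same 5 libraries.

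At the other end, 11 windows held fewer than 20 loci. The window at 42 to 43 Mb of chromosome 7 held none, and the next window held 4. It lay in the widest gap between neighbouring middle loci, 2298 kb, which ran from Cluster_125093, ending at position 41612964, to Cluster_125094, starting at position 43911030. The widest gap was 1339 kb on chromosome 11, 1251 kb on chromosome 9, 1119 kb on chromosome 3 and 975.0 kb on chromosome 8, and it was narrowest on chromosome 10 with 171.8 kb. Whether such a gap is unassembled sequence, sequence without unique matches or sequence without sRNAs was not tested, since the genome itself was not used here.

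The typical spacing was wider in the middles. From a middle locus to the next listed locus the median distance was 1389 bp, against 671 bp from an outer locus, and 43.3% of middle loci had that neighbour within 1 kb, against 61.9% of outer loci. Distances above 50 kb followed 3.56% of middle loci and 0.482% of outer loci.

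Middle loci were shorter. Their median length was 129 bp, against 145 bp for outer loci. Over chromosomes the median was 122 to 134 bp in the middles and 142 to 150 bp in the outer parts, so that the ranges did not overlap and the middle was the shorter on 10 of 10 chromosomes. Among loci of like summed count the median lengths were closer. For middle and outer loci they were 104 and 105 bp at 5 to 9 counts and 126 and 129 bp at 10 to 19. At 20 to under 50 counts they were 154 and 165 bp, and at 100 to under 1000 counts 235 and 257 bp. Much of the difference in length thus went with the lower counts of middle loci. By length class the ratio of middle to outer density fell steadily, with 0.322 for loci under 100 bp, 0.307 from 100 to under 200 bp, 0.218 from 200 to under 500 bp and 0.172 from 500 bp. The 321 middle loci of at least 500 bp were 1.74% of the middle loci and carried 15.9% of their counts.

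Most middle loci were also weak. The median summed count over the 5 libraries was 13, against 19 for outer loci, and over chromosomes it was 12 to 15 against 18 to 23. Fewer than 20 counts in all were found at 62.5% of middle loci and at 50.6% of outer loci. The density ratio of middle to outer was 0.375 for loci with 5 to 9 summed counts and 0.146 for those with 1000 to under 10000, falling in each class between. The length of a locus and its summed count were related in both parts (Spearman's rho of 0.43 over 18489 middle loci and of 0.49 over 131257 outer loci, across loci, which share libraries and are not replicates).

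Each library showed the lower level of the middle loci. On the scale log2(CPM + 0.5), where CPM is the count scaled to library size with edgeR's TMM factors, the mean over middle loci minus the mean over outer loci was -0.32 in IL1-1, -0.42 in IL2-5 and -0.33 in IL8-3, and -0.38 and -0.27 in M82 replicates 1 and 2. The mean of these differences was -0.35 ± 0.06 (SD, 5 libraries), with the same sign in 5 of 5 libraries and a two-sided exact permutation p of 0.062, the smallest that 5 libraries allow. The share of loci with no count in a library was 1.80 to 5.55 percentage points higher among middle loci than among outer loci.

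The strongest middle loci broke this pattern. In the top class, with at least 10000 summed counts, there were 15 middle loci and 78 outer loci, a density ratio of 0.385, and these 15 loci carried 44.2% of all middle counts while the 78 carried 20.04% of the outer counts. The arithmetic mean count per locus was not lower in the middles of every library. The ratio of middle to outer mean was 1.01, 1.14 and 0.946 in the lines, and 0.752 and 0.847 in M82. The mean was 22.3, 26.6 and 24.99 per middle locus in the lines, where outer loci had 22.1, 23.3 and 26.4. It was 17.5 and 11.4 per middle locus in M82 replicates 1 and 2, where outer loci had 23.2 and 13.4. The difference of the means was -1.14 ± 3.29 counts (SD, 5 libraries), negative in 3 of 5, with a two-sided exact permutation p of 0.562. These counts are unscaled and pool lines with M82, so the test does not show that the parts are alike.

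A single locus could dominate a chromosome. Cluster_124320, a locus of 292 bp at chr7:30150719-30151010, held 80.1% of the counts of the middle of chromosome 7, Cluster_196407 (194 bp, chr11:32422960-32423153) held 52.2% of those of chromosome 11, and Cluster_160743 (607 bp, chr9:40280717-40281323) held 44.3% of those of chromosome 9. On the other chromosomes the leading locus held less. It was Cluster_105499 on chromosome 6 with 22.7%, Cluster_177894 on chromosome 10 with 14.7%, Cluster_210788 on chromosome 12 with 11.5%, Cluster_54454 on chromosome 3 with 10.3%, Cluster_74093 on chromosome 4 with 9.90%, Cluster_93145 on chromosome 5 with 9.42% and Cluster_142034 on chromosome 8 with 5.61%. Over all middles, the 2 highest loci held 24.2% of the counts and the 10 highest 40.9%. In the outer parts the highest 14 and 71 loci, which are the same fraction of loci, held 12.6% and 19.5%.

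The share of a library's counts that fell on middle loci was higher in the lines. It was 8.82% in IL1-1, 9.26% in IL2-5 and 8.12% in IL8-3, against 6.64% in M82 replicate 1 and 7.41% in M82 replicate 2. The 3 lines lay above both M82 libraries. The means were 8.74% ± 0.58 in the lines and 7.03% ± 0.54 in M82 (SD, n = 3 and 2), a difference of 1.71 percentage points with a two-sided exact permutation p of 0.2, which is the smallest that 3 against 2 libraries can give.

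A handful of loci carried that difference. The 10 highest middle loci alone took 3.96%, 4.73% and 3.25% of the libraries of the lines, against 1.75% and 2.51% of those of M82. Without the 2 highest, the share was 6.43%, 6.38% and 6.29% in the lines, against 5.66% and 5.93% in M82. Without the 10 highest it was 4.87%, 4.53% and 4.87% in the lines, against 4.90% and 4.89% in M82, so that the order turned, with a difference of -0.14 percentage points. Without the 100 highest the difference was -0.27 percentage points. These loci were taken by a summed count that holds 3 line and 2 M82 libraries, which favours loci high in the lines, so leaving them out moves the remainder toward M82 and the turn is a description only. By chromosome, the lines lay above both M82 libraries on chromosomes 7 and 11 alone, those with the 2 highest loci. Without the 10 highest loci they did so on no chromosome, and they lay below both M82 libraries on chromosome 6.

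**Figure D3:**
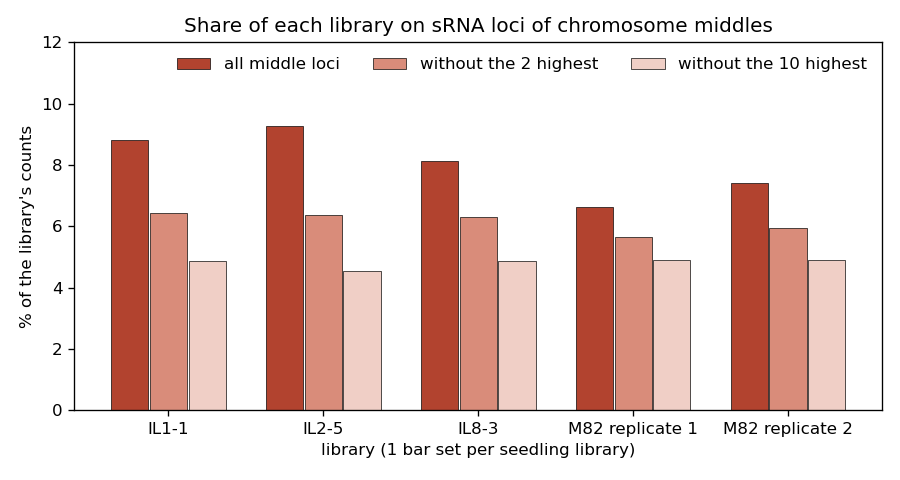
Share of each library's counts (%, y axis) on the middle loci, for the 3 lines and the 2 M82 seedlings (x axis), with all middle loci, without the 2 highest and without the 10 highest by summed count. With all loci the lines stand at 8.12% to 9.26% and M82 at 6.64% and 7.41%, and without the 10 highest all 5 libraries stand between 4.53% and 4.90%.

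Cluster_196407 was the most abundant middle locus. It reached 12627 CPM in IL1-1, 17971 in IL2-5 and 8513 in IL8-3, against 5231 and 7491 CPM in M82 replicates 1 and 2. The lines averaged 13037 ± 4743 CPM and M82 6361 ± 1598 CPM (SD, n = 3 and 2). All lines were above both M82 libraries, although the lines differed from each other by more than IL8-3 differed from M82 replicate 2. The log2 fold change was 1.03 (SE 0.58, edgeR quasi-likelihood test, adjusted p = 0.571, Benjamini-Hochberg over all loci tested).

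Cluster_124320 on chromosome 7 was the next most abundant. It had 11815, 14166 and 9136 CPM in the lines, against 3446 and 7773 CPM in M82. Here the M82 libraries differed from each other by more than the lowest line differed from the higher of them. The log2 fold change was 1.06 (SE 0.59, adjusted p = 0.568, same test), and it was 0.62 without M82 replicate 1 and 1.78 without M82 replicate 2.

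Of the 10 highest middle loci 6 had all lines above both M82 libraries, none had all lines below, and 9 had a positive fitted log2 fold change, with a median of 1.04. As the choice by summed count favours the lines, these counts too are a description. None passed the threshold, the lowest adjusted p being 0.424 (edgeR's quasi-likelihood test).

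Of these, 3 loci stood out by the size of the difference. Cluster_210788 (693 bp, chr12:36734251-36734943) had 1962, 1327 and 1329 CPM in the lines, against 324 CPM in M82 replicate 1 and 323 in M82 replicate 2. No overlap was seen, and the M82 libraries were nearly equal. Its log2 fold change was 2.24 (SE 0.45). Cluster_105499 (177 bp, chr6:25283156-25283332) had 3268, 1207 and 4320 CPM in the lines, against 572 and 421 CPM in M82, with a log2 fold change of 2.56 (SE 0.65). Cluster_177894 (376 bp, chr10:39302223-39302598) had 1267, 1777 and 671 CPM, against 188 and 267 CPM in M82, with a log2 fold change of 2.44 (SE 0.55). Each had an adjusted p of 0.424 in edgeR's quasi-likelihood test. DESeq2 gave adjusted p-values of 3.0e-06, 0.00125 and 0.000246 for the same loci, and over all alternatives tried the highest adjusted p was 0.770 for each.

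The neighbourhood of an abundant locus was not equally abundant. Within 50 kb of Cluster_124320 there were 4 other middle loci, the highest with 42 summed counts beside its own 215881. Around Cluster_196407 there were 46, with up to 6208 counts beside 243032. Of the 21 among them that were tested, 16 had a higher and 5 a lower fitted value in the lines, where 48.9% of all tested loci were above 0. Of the 21, 1 was higher at an unadjusted p under 0.05, against 4.88% of all tested loci (edgeR's quasi-likelihood test). The 1 Mb window that holds Cluster_196407 and these neighbours, at 32 to 33 Mb of chromosome 11, had the highest median log2 fold change (0.34 over 73 tested loci) of the 59 windows with at least 20 tested loci. The median of those windows was -0.01 and the lowest -0.48, at 35 to 36 Mb of the same chromosome with 20 tested loci. Neighbours within 50 kb of the loci of large difference named above did not lean 1 way. Of those tested, 7 were higher and 11 lower at Cluster_210788, 9 and 4 at Cluster_105499, and 5 and 5 at Cluster_177894.

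Across all middle loci, no shift between lines and M82 was seen beside the rest of the table. The TMM scaling over all loci sets the typical locus near 0, so a shift shared by the whole table could not be seen. Of the 18489 middle loci 4146 (22.4%) had enough counts to be tested, against 32.7% of outer loci and 28.3% of the table. Among those tested, the fitted log2 fold change of lines over M82 had a median of 0.002 and quartiles of -0.46 and 0.47, and 50.1% were above 0. For outer loci the median was 0.01, and for all loci tested -0.02. By chromosome the median ran from -0.06 on chromosome 12 to 0.11 on chromosome 9, which has the fewest tested loci (187).

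No middle locus passed the test. At an adjusted p under 0.05 in edgeR's quasi-likelihood test 0 of 4146 were higher and 0 lower in the lines, where 0.00322% of all tested loci were called higher and 0.00322% lower. At an unadjusted p under 0.05 there were 247 higher (5.96%, against 4.88% of all tested loci) and 259 lower (6.25%, against 5.48% of all tested loci). All 3 lines lay above both M82 libraries at 656 middle loci (15.8%, against 14.7% of all tested loci) and below both at 624 (15.1%, against 15.2% of all tested loci). These shares lay close to those of the whole table, and the difference from it was not tested. The balance of directions depended on the scaling, since with library size only the lines lay above both M82 libraries at 492 middle loci and below both at 793.

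The number of calls depended on the tool and on which loci shared the fit. edgeR's likelihood ratio test called 36 higher (0.868%, against 0.469% of all tested loci) and 34 lower (0.820%, against 0.508%). DESeq2 called 16 higher (1.45%, against 0.837% of all loci to which it gave an adjusted p) and 5 lower (0.453%, against 0.375%) among the 1103 middle loci to which it gave an adjusted p. The quasi-likelihood test called 3 higher and 2 lower when the introgressed segments, which hold none of the middle loci, were left out of the table, where it called 0.0278% of all tested loci higher and 0.0185% lower. It called 4 higher and 3 lower when every locus was kept, where it called 0.0191% of all loci higher and 0.0146% lower. The differences between these shares were not tested. Without any 1 of the 5 libraries it called none. Of the 21 middle loci called by DESeq2, 15 (71.4% of them, and 21.4% of the 70) were also called by the likelihood ratio test. At 20 of the 21 all lines lay on the same side of both M82 libraries. The test that called them compares lines with M82 in these same libraries and favours such loci, so this count is a description only.

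By chromosome, the share of tested middle loci with p under 0.05 ran from 4.11% on chromosome 8 to 7.93% on chromosome 5 for those higher in the lines, and from 3.74% on chromosome 9 to 7.49% on chromosome 6 for those lower. On chromosomes 3 and 9 more of the loci had all lines above both M82 libraries (17.2% and 17.1%) than below (12.1% and 10.2%), and on the others the shares were within 1.76 percentage points of each other.

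Taken singly, each line stayed close to M82. Over the 3326 middle loci whose mean reached 10 counts, the median difference from the M82 mean on the scale log2(CPM + 0.5) was 0.08 in IL1-1, 0.03 in IL2-5 and 0.05 in IL8-3. M82 replicate 2 differed from replicate 1 by a median of 0.11 at the same loci. Over all chromosomes no line therefore moved by more than the M82 libraries differed, although with library size only IL2-5 differed from M82 by a median of -0.17. The interquartile range of the differences was 0.96, 1.01 and 0.93 in the lines, against 1.14 between the M82 libraries, which compares 1 library with another and not with a mean.

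By chromosome the medians of the lines stayed between -0.03 and 0.19. IL1-1 was highest on chromosome 4 (0.13) and lowest on chromosome 7 (0.01), IL2-5 was highest on chromosome 5 (0.14) and lowest on chromosome 4 (-0.03), and IL8-3 was highest on chromosome 9 (0.19) and lowest on chromosome 12 (-0.02). The M82 libraries differed by 0.03 on chromosome 12 and by up to 0.28 on chromosome 9, and replicate 2 was the higher on 10 of 10 chromosomes. On 4 chromosomes a line was farther from M82 than the M82 libraries were from each other. These were chromosome 3 (0.11, 0.13 and 0.15 in the lines, against 0.07 between the M82 libraries), chromosome 4 (0.13 in IL1-1 and 0.11 in IL8-3, against 0.05), chromosome 5 (0.14 in IL2-5 and 0.12 in IL8-3, against 0.09) and chromosome 12 (0.04 in IL1-1, against 0.03).

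**Figure D4:**
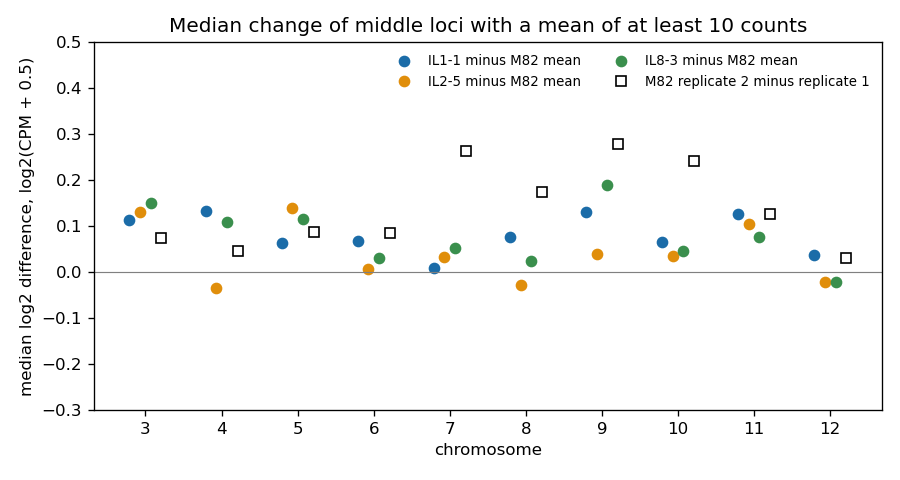
Median log2 difference of the middle loci whose mean reached 10 counts, by chromosome (x axis), on the scale log2(CPM + 0.5). Filled circles are each line minus the M82 mean and open squares M82 replicate 2 minus replicate 1. The lines lie between -0.03 and 0.19 and the M82 pair between 0.03 and 0.28.

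Large differences at single loci were rare in every line. In IL1-1, 56 of the 3326 loci (1.68%) were at least 4-fold higher than the M82 mean and 46 (1.38%) at least 4-fold lower, where the shares over all loci of the table with that mean count were 1.19% and 3.26%. In IL2-5 it was 52 (1.56%) higher and 43 (1.29%) lower, against 1.22% and 1.44% over the table. In IL8-3 it was 43 (1.29%) higher and 28 (0.842%) lower, against 1.02% and 1.27% over the table. The figures for the table include the introgressed segments of the lines. Over outer loci, which hold no segment of IL1-1 or IL2-5, the shares were 0.949% higher and 0.587% lower in IL1-1 and 1.05% higher and 0.684% lower in IL2-5, below those of the middle loci in both directions. Over outer loci, the shares in IL8-3, whose segment they include, were 0.932% higher and 1.46% lower. These differences were not tested. Between the M82 libraries, 86 middle loci (2.59%) were at least 4-fold higher and 74 (2.22%) at least 4-fold lower in replicate 2 than in replicate 1, against 1.49% and 2.35% over the table. The M82 seedlings differed by this much at more of the middle loci than any line differed from their mean. The 2 comparisons are unlike, since the M82 pair sets 1 library against another, the shallowest, and not against a mean. They do not show that the lines vary less than the M82 seedlings.

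The largest differences between the lines and M82 at single middle loci were taken by a rule: an unadjusted p under 0.05, all lines beyond both M82 libraries, at least 20 counts in every library of the higher group, and the 6 largest fitted differences in each direction. None passed the adjusted threshold. The rule fixes that the groups do not overlap, so the values are a description of the size of the differences, and the spread inside the groups was wide at several of these loci.

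Of those higher in the lines, Cluster_212708, a locus of 85 bp at chr12:40760912-40760996, had similar levels inside each group. It had 380, 453 and 595 counts in the lines, against 55 and 26 in M82, which is 92.9 ± 8.99 CPM in the lines and 9.72 ± 0.413 CPM in M82 (SD, n = 3 and 2). The log2 fold change was 3.25 (SE 0.38, edgeR quasi-likelihood adjusted p = 0.109), and the adjusted p ran from 1.3e-11 under DESeq2 to 0.684 over the alternatives. Leaving out any 1 library kept the log2 fold change between 3.20 and 3.34.

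Another such locus, Cluster_212720 (254 bp, chr12:40773477-40773730), lay 12.5 kb away. It had 215, 238 and 366 counts in the lines, against 42 and 18 in M82, with a log2 fold change of 2.88 (SE 0.38, adjusted p = 0.179 from the same test, 1.8e-07 to 0.685 over the alternatives). Between the pair stood 11 other middle loci, of which 2 had enough counts to be tested, with log2 fold changes of 0.35 and 0.11. The pair therefore did not form 1 continuous block. Within 50 kb of Cluster_212708 14 middle loci were tested, of which 11 had a higher fitted value in the lines, where 48.9% of all tested loci did. At an unadjusted p under 0.05 4 were higher, against 4.88% of all tested loci, and none lower (same test). Cluster_212720, which the rule chose by such a p, is 1 of the 4. Around the other loci of this direction 4 or fewer were tested. These were 2 higher and 2 lower at Cluster_74641, 2 and 1 at Cluster_160602, 1 and 0 at Cluster_55087, and none at Cluster_104628.

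Cluster_74641 (403 bp, chr4:41821576-41821978) had the largest fitted difference. It held 29, 35 and 49 counts in the lines, against 2 and 1 in M82. With so few M82 reads the lines held 20.4 times the pooled M82 level, and counting error alone allowed 6.80 to 100.3 times (95% exact interval). Its log2 fold change was 4.23 (SE 0.53, edgeR quasi-likelihood adjusted p = 0.166, 2.0e-06 to 0.684 over the alternatives), and it stayed between 4.14 and 4.34 when any 1 library was left out.

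The other 3 were Cluster_104628 on chromosome 6 (24, 20 and 31 counts in the lines, against 2 and 3 in M82), Cluster_55087 on chromosome 3 (132, 175 and 141, against 32 and 5) and Cluster_160602 on chromosome 9 (1837, 4272 and 1747, against 335 and 274). Their log2 fold changes were 2.89, 2.87 and 2.72, and they moved with the library left out. The range was 2.17 (without M82 replicate 1) to 3.68 (without M82 replicate 2) for Cluster_104628, 2.37 (without M82 replicate 2) to 4.05 (without M82 replicate 1) for Cluster_55087 and 2.12 (without IL2-5) to 3.14 (without M82 replicate 2) for Cluster_160602. After scaling, Cluster_160602 had 401, 898 and 295 CPM in the lines, against 61.0 and 99.3 CPM in M82.

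Of those lower in the lines, Cluster_54186 (119 bp, chr3:31303293-31303411) had the largest fitted difference. It held 2, 2 and 1 counts in the lines, against 36 and 27 in M82. Pooled over libraries, the lines held 0.0429 times the M82 level (95% exact interval 0.0135 to 0.106), and the log2 fold change was -4.51 (SE 0.53, edgeR quasi-likelihood adjusted p = 0.118, 8.1e-09 to 0.684 over the alternatives).

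Cluster_195968 (142 bp, chr11:30884540-30884681) held 11, 12 and 9 counts in the lines, against 107 and 58 in M82. That is 2.15 ± 0.55 CPM in the lines and 20.3 ± 1.10 CPM in M82 (SD, n = 3 and 2), with no overlap and with M82 libraries that agreed in CPM. Its log2 fold change was -3.24 (SE 0.37, edgeR quasi-likelihood adjusted p = 0.109, 2.6e-08 to 0.684 over the alternatives), and it stayed between -3.36 and -3.02 when any 1 library was left out.

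The other 4 were weaker. Cluster_105658 and Cluster_106044 on chromosome 6, Cluster_54587 on chromosome 3 and Cluster_196856 on chromosome 11 held 2 to 20 counts per library in the lines and 21 to 58 in M82, with log2 fold changes of -3.02, -2.10, -2.83 and -2.15. At each of them M82 replicate 2 was higher in CPM than replicate 1. Without that library the log2 fold changes of the same loci were -2.24, -0.44, -1.92 and -1.12, so that all were smaller and that of Cluster_106044 most of all.

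**Figure D5:**
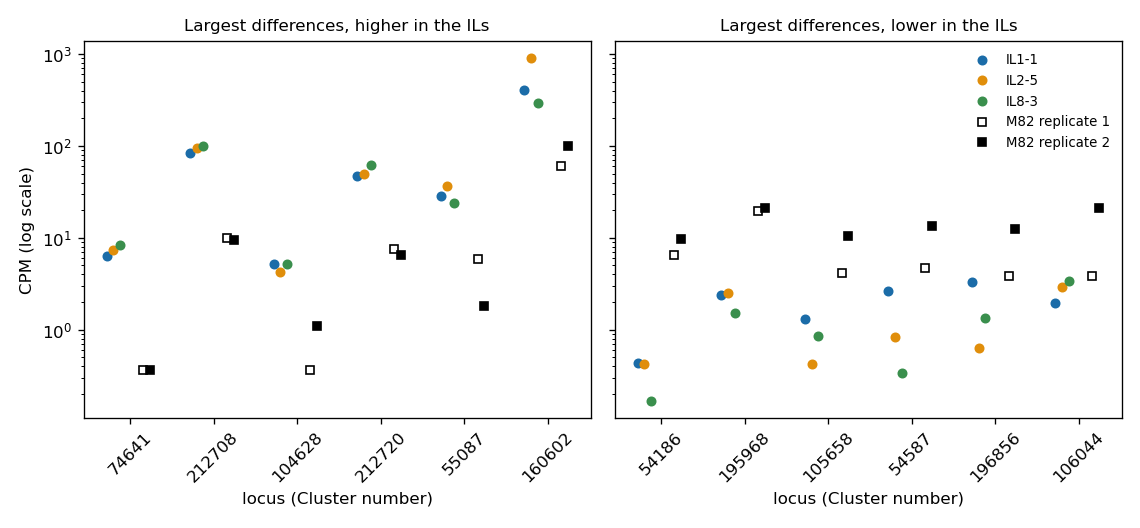
Level (CPM, log axis) in each library for the 6 middle loci with the largest fitted difference in each direction under the naming rule, those higher in the lines on the left panel and those lower on the right. Circles are the lines and squares the M82 libraries. At Cluster_212708 the lines stand at 83.0 to 100.6 CPM and M82 at 9.43 and 10.0 CPM, and at Cluster_195968 the lines stand at 1.52 to 2.52 CPM and M82 at 19.5 and 21.0 CPM.

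Other middle loci were far from M82 in 1 line. The rule took those whose mean reached 50 counts and whose other lines lay within 2-fold of the M82 mean, which does not keep the other lines from lying on the same side of M82, and the values are a description of single libraries with no replicate. In IL1-1, Cluster_92724 (127 bp, chr5:26985705-26985831) held 1246 counts, where IL2-5 and IL8-3 held 3 and 0 and M82 held 3 and 1. Its ratio to M82 was 561.6, with a 95% exact interval of 218.8 to 2064 for counting error. Cluster_177472 (119 bp, chr10:34543648-34543766) held no count in IL1-1, against 843 and 331 in M82, with 607 and 551 in the other lines. Against a floor of 3 counts in that library it was at least 217.1-fold lower in IL1-1 than in M82. Cluster_160904 on chromosome 9 likewise held no count in IL1-1, against 127 and 242 in M82, at least 68.2-fold lower. Cluster_210732 on chromosome 12 held 289 counts in IL1-1, against 47 and 23 in M82.

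In IL2-5, Cluster_196582 (101 bp, chr11:33088576-33088676) held 323 counts, where the other lines held none and M82 held 0 and 1. The ratio to M82 was 560.4, with a 95% exact interval of 99.9 to 22202, which shows how little 1 M82 read can fix it. Cluster_160674 on chromosome 9 held 427 counts in IL2-5, against 179 and 19 in M82. At Cluster_94025 on chromosome 5 IL2-5 had 11.4 CPM, against 32.0 and 52.6 CPM in M82, but IL1-1 and IL8-3, with 24.5 and 22.5 CPM, also lay below both M82 libraries. Cluster_196316 on chromosome 11 held 35, against 132 and 373 in M82, which themselves differed more (24.03 and 135 CPM) than IL2-5 (7.36 CPM) differed from the lower of them.

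In IL8-3, Cluster_177556 (184 bp, chr10:34952469-34952652) held 6 counts, against 1271 and 412 in M82, with 1062 and 950 in the other lines. Its ratio to M82 was 0.00497 (95% exact interval 0.00182 to 0.0108). Cluster_177070, also on chromosome 10, held 164 counts in IL8-3, against 126 and 1679 in M82, so that the M82 libraries lay on both sides of the line. Cluster_195589 on chromosome 11 held 185 counts in IL8-3, against 64 and 24 in M82. At Cluster_177041 on chromosome 10 IL8-3 had 26.0 CPM, against 10.0 and 6.53 CPM in M82, but IL1-1 and IL2-5, with 12.2 and 14.7 CPM, also lay above both M82 libraries.

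A difference of this size between single libraries was also found inside M82. Cluster_141489 (144 bp, chr8:29191231-29191374), chosen after its values were seen, held 27, 43 and 40 counts in the lines, against 3614 in M82 replicate 1 and 12 in M82 replicate 2. M82 replicate 1 was 151.2-fold above replicate 2 in CPM. At Cluster_123752 (67 bp, chr7:23224083-23224149), also chosen after its values were seen, the lines differed and the M82 libraries did not. It held 18, 497 and 508 counts in the lines, against 6 and 3 in M82 (1.09 CPM in each), so that IL1-1 lay nearer to M82 than to the other lines.

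A small set of regions whose DNA methylation differed in the lines was set beside the middle loci. It holds the 17 regions that the study selected for its tests of inheritance and those shared by the lines in all cytosine contexts, taken as positions. The study chose the hypermethylated ones of the 17 partly by differing sRNAs. The far longer lists of regions differing in a single context were not used here. Of 12 such regions in the middles, 2 overlapped a middle locus, 4 had one within 1 kb and 6 had none that near. Several of those 6 are close pieces of the same stretch, with the same nearest locus. The overlapping loci had few counts. Cluster_92231 (415 bp, chr5:22507992-22508406) overlaps a region listed as hypomethylated in the lines and held 25, 14 and 35 counts in the lines, against 5 and 4 in M82, with a log2 fold change of 2.06 (SE 0.56, edgeR quasi-likelihood adjusted p = 0.424). Cluster_106453 on chromosome 6 overlaps another such region and held 2, 4 and 1 counts in the lines, against 6 and 1 in M82, too few to be tested. The study lists no differing sRNAs at either of these regions. Cluster_195968, with its lower counts in the lines, overlaps none of these regions and lies 240 bp from one listed as hypermethylated. The other near loci had few counts. Cluster_105100, 680 bp from a hypermethylated region, held 2, 0 and 5 in the lines, against 14 and 4 in M82. Cluster_212182, 18 bp from another, held 0, 2 and 0, against 3 and 2. Cluster_210476, 852 bp from a hypomethylated region, held 27, 35 and 49, against 10 and 6.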

How the data were processed

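The authors mapped the 5 seedling libraries together to the Heinz genome SL2.50 and clustered them into loci with ShortStack, all settings at default, and deposited raw counts of reads per locus without normalization. Each of the 5 columns matched 1 library, and all were used. The submitters' processing notes also name Trim Galore, Bowtie 1.1.1 and DESeq2 1.8.1. The tables of counts on another locus, and the other libraries of the series, were not analysed here.

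The counts of all loci entered 1 quasi-likelihood fit in edgeR 4.0.16 (R 4.3.3; TMM scaling, filterByExpr) with the group, line or M82, as the only term, which left 62065 loci, with Benjamini-Hochberg adjustment over all of them at a threshold of 0.05. The common dispersion was 0.148. Each SE given is the size of the fitted log2 fold change divided by the square root of the quasi-likelihood F statistic. It is thus derived from the test and was not estimated apart from it. The fits were tested on simulated data. CPM divide by the library total times its TMM factor (0.897 to 1.13). Differences on the scale log2(CPM + 0.5) use a pseudocount of 0.5 CPM, so there a change of low loci is understated. Fitted log2 fold changes come from the edgeR fit and not from that scale. At Cluster_74641 the fitted value was 4.23, against 2.99, 3.19 and 3.35 in the lines on that scale. Shares were compared by exact permutation over libraries (scipy 1.17.1). Totals ran from 2843012 to 5688499 counts per library. Intervals at 95% are exact binomial ones, where a library held no read the bound assumes 3, and both describe counting error alone, as PCR copies are not independent.

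Loci were named by a rule: the highest summed count on each chromosome, the largest differences in each direction, the loci high or low in 1 line, those overlapping a short list of regions of differing methylation, and the widest gaps. The nearest loci within 1 kb of those regions are also given. The loci, the rules and the tests were chosen with earlier results of these data known. Alternatives were other factors, filters, tests and thresholds, other definitions of the middle, other pseudocounts, leaving out each library and leaving out the introgressed segments. DESeq2 1.42.0 was one of them, and its NA adjusted p-values stayed NA. Leaving out the 2 and the 10 highest loci was added after the values were seen. No genome sequence or annotation was used.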

Additional observations from a re-analysis of the deposited data

How the results depend on the processing

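The calls rested on few libraries and on how the spread was estimated. No middle locus was called in either direction with other size factors, library size only, at least 10 counts in at least 2 libraries, a threshold of 0.1 or without any 1 library (0 to 0 calls higher and 0 to 0 lower), but 4 higher and 3 lower were called with every locus kept, 36 and 34 by the likelihood ratio test, 16 and 5 by DESeq2 and 3 and 2 without the introgressed segments, where 42 and 32, 291 and 315, 163 and 73, and 15 and 10 were called over all loci. The density ratio of middle to outer was 0.304 for loci of any length, 0.315 with the middle taken as 2/5 to 3/5 of the chromosome and 0.245 for loci with at least 10 summed counts, which also raised the median length to 153 bp. The difference in share was 1.95 points with loci of any length and 2.09 points of the counts of chromosomes 3 to 12, 0.573 without the 2 highest loci, turned to -0.14 without the 10 highest and -0.27 without the 100 highest, and ran from 1.33 to 2.09 without any 1 library.

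With library size only, the median difference was -0.0056 in IL1-1 and -0.17 in IL2-5, where over all loci of the table it was -0.066 and -0.15. Loci at least 4-fold higher and lower numbered 30 and 18 in IL1-1, 26 and 6 in IL2-5 and 20 and 10 in IL8-3 with a pseudocount of 2 CPM, and 11 and 13, 21 and 4, and 13 and 6 in the same lines where the mean had to reach 50 counts. The counts of loci with all lines above or below both M82 libraries stayed within 1.5 times of the main ones, but with library size only their balance turned, to 492 above and 793 below, as did that of the 4-fold counts (47 higher and 56 lower in IL1-1, 39 and 61 in IL2-5). The shares over all loci under these settings are not given, so the counts describe the setting and not a trait of the middle loci. Of 396 refits of 33 named loci 387 kept the direction, and 31, at 13 loci, passed the threshold.

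The sign turned for 8 named loci when 1 library was left out. The range of the log2 fold change was -0.16 (without IL2-5) to 0.44 at Cluster_54454, -0.19 (without IL2-5; -0.11 without M82 replicate 1) to 0.62 at Cluster_160743, and -0.82 (without IL1-1) to 2.00 at Cluster_210732. It ran from -0.92 to 0.18 (without IL8-3) at Cluster_177556. Without M82 replicate 2 it reached -0.12 at Cluster_93145 (up to 1.06 otherwise), 0.27 at Cluster_160904 (down to -1.65), 0.32 at Cluster_196316 (down to -2.15) and 1.74 at Cluster_177070 (down to -2.98). The cause was not tested beyond the library left out. No paired analysis was possible because each line has 1 library and no replicate number that M82 shares. A median of 2 or 3 counts per locus and library limits what can be seen at most middle loci.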

Other observations

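Chromosomes 1 and 2 were outside the choice of loci, and their middles are given as values. The middle of chromosome 1 held 1981 loci of the same length range, 60.3 per Mb against 294.2 per Mb in its outer parts, with a median length of 127 bp and a median summed count of 12, close to the middles of chromosomes 3 to 12. All of these loci lie in the introgressed segment of IL1-1. Over the 315 whose mean reached 10 counts, the median log2 difference from M82 was -0.91 in IL1-1, 0.09 in IL2-5 and 0.07 in IL8-3, and 94 loci (29.8%) were at least 4-fold lower in IL1-1, where 7 were in IL2-5 and 1 in IL8-3. Reads were mapped to the Heinz genome, and how many reads of S. pennellii sequence failed to map in that segment was not tested.

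The middle of chromosome 2 was dense. It held 4801 loci, 260.5 per Mb against 292.0 per Mb in its outer parts, with a median length of 141 bp and a median summed count of 16, each above the highest value in the middles of chromosomes 3 to 12. Its median log2 differences from M82 were 0.07 in IL1-1, 0.04 in IL2-5 and 0.04 in IL8-3 over 1143 loci.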
